A study of Mus musculus with 14 samples.

Results

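The genes described are 7 members of the major histocompatibility complex (MHC) class II pathway in mouse: *H2-Aa*, *H2-Ab1*, *H2-Eb1*, *H2-DMa*, *H2-DMb1*, *Cd74* and *Ciita*. They were taken by symbol from a table of 56414 genes measured by RNA sequencing of whole mammary tumors, and all 7 were found. The study compared tumors of C57Bl/6 female mice that were left untreated or received nicotinamide (NAM, a form of vitamin B3), a treatment it examined for effects on the immune control of breast cancer. M/D-driven tumors arose in the animals' own mammary glands after a slow-release pellet of medroxyprogesterone acetate (MPA, a synthetic progestin) and repeated gavage with the carcinogen 7,12-dimethylbenz[a]anthracene (DMBA), so that treated and untreated mice of this model all carried MPA and DMBA. AT3 tumors grew from a mammary cancer cell line injected under the skin, and hence all derive from 1 line placed outside the gland. NAM was given at 0.5% in the drinking water for 10 days. The M/D-driven tumors comprised 4 untreated and 4 treated samples, and the AT3 tumors 3 and 3. By the labels, NAM-treated M/D-driven tumor 1 belonged to experiment 2, the other M/D-driven tumors to experiment 1, and the AT3 tumors to experiment 3.

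MHC class II molecules are pairs of an alpha and a beta chain that carry peptides from engulfed proteins to the surface of dendritic cells, macrophages and B cells, where CD4+ T cells inspect them. *H2-Aa* and *H2-Ab1* encode the chains of I-A, and *H2-Eb1* encodes the beta chain of I-E. C57BL mice make no functional I-E alpha chain. *Cd74* encodes the invariant chain, which escorts new class II molecules and blocks their groove until it is cleaved. *H2-DMa* and *H2-DMb1* encode chains of H2-M, which exchanges the remaining invariant chain fragment for a peptide, whereas H2-O, made from *H2-Oa* and *H2-Ob* and best known in B cells, holds H2-M back. *Ciita* encodes the class II transactivator, a co-activator without DNA binding of its own. It is recruited to class II promoters by the enhanceosome, the complex of RFX, CREB and NF-Y factors that sits on the X and Y boxes, and it is itself inducible by interferon-gamma.

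The X and Y boxes are the sequence that class II genes are known to share, so their promoters are shown first. RefSeq windows on GRCm38.p6, from 250 bases before to 50 bases after each start, existed for 4 of the 7 members. The letters GNAAC, the most constant stretch of the X box, were searched with TGATTGG, the Y box, 20 to 40 bases after them. All counts cover both strands of each window, and the pairs printed below lie in the direction of transcription. These letters were chosen after the class II windows had been read. The pair was present in the windows of 3 members and in 188 of all 32851 windows (0.572%). TGATTGG alone was present in 7.82% of windows and GNAAC alone in 84.8%. In the lines below, each read 5′ to 3′, capitals mark both stretches.
H2-Aa, chr17:34287857-34287914, minus strand: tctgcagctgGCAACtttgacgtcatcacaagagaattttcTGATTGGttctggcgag
H2-Eb1, chr17:34305766-34305822, plus strand: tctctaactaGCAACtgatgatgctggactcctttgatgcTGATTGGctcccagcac
H2-DMb1, chr17:34153087-34153144, plus strand: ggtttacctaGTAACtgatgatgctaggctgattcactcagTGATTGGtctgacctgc
H2-Ob, chr17:34238808-34238862, plus strand: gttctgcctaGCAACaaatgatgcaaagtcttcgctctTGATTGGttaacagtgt
The spacing between the stretches was 26 bases in *H2-Aa* and *H2-DMb1*, 25 in *H2-Eb1* and 23 in *H2-Ob*. *H2-Ob* is shown because it shares these letters and yet moved apart from the 7 members in NAM-treated M/D-driven tumor 1, described below. The pair was also in the windows of *H2-Oa* and *H2-Eb2*, which were highest in that tumor too, but not in that of *H2-DMb2*. Of 9 class II windows, 6 had the pair. The pair was in neither of the windows of *H2-DMa*.

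The tumors yielded between 40936868 and 84178009 reads, recovered from the deposited normalized counts (reads per gene divided by a size factor for each tumor). NAM-treated M/D-driven tumor 1 stood apart from the other M/D-driven tumors. The summed normalized count of 7 mammary epithelial markers was 7047 in this tumor and between 250181 and 1013080 in the others, although none of these markers was at 0. The normalized count of the B cell marker *Cd79b* was 31992 in this tumor and between 55.6 and 351 in the other M/D-driven tumors. For the members, fold changes in M/D-driven tumors are therefore given with and without it. Because it is the only tumor of experiment 2, the values without it are also those within experiment 1. In AT3 tumors, the epithelial markers were all present, with sums between 73038 and 100557.

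In untreated M/D-driven tumors, the 7 members together took between 0.298% and 0.568% of all reads. In the NAM-treated tumors the shares were 0.0826%, 0.407%, 0.380% and 1.07% in tumors 1 to 4, so that both the lowest and the highest share of the 8 tumors were in the treated group. In AT3 tumors the shares were lower, at 0.0453%, 0.0314% and 0.0938% in untreated tumors 1 to 3 and 0.140%, 0.0774% and 0.0663% in NAM-treated tumors 1 to 3. In whole tumors, fewer class II-positive cells and less RNA per cell cannot be told apart, and this holds for every value given here.

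**Figure D1:**
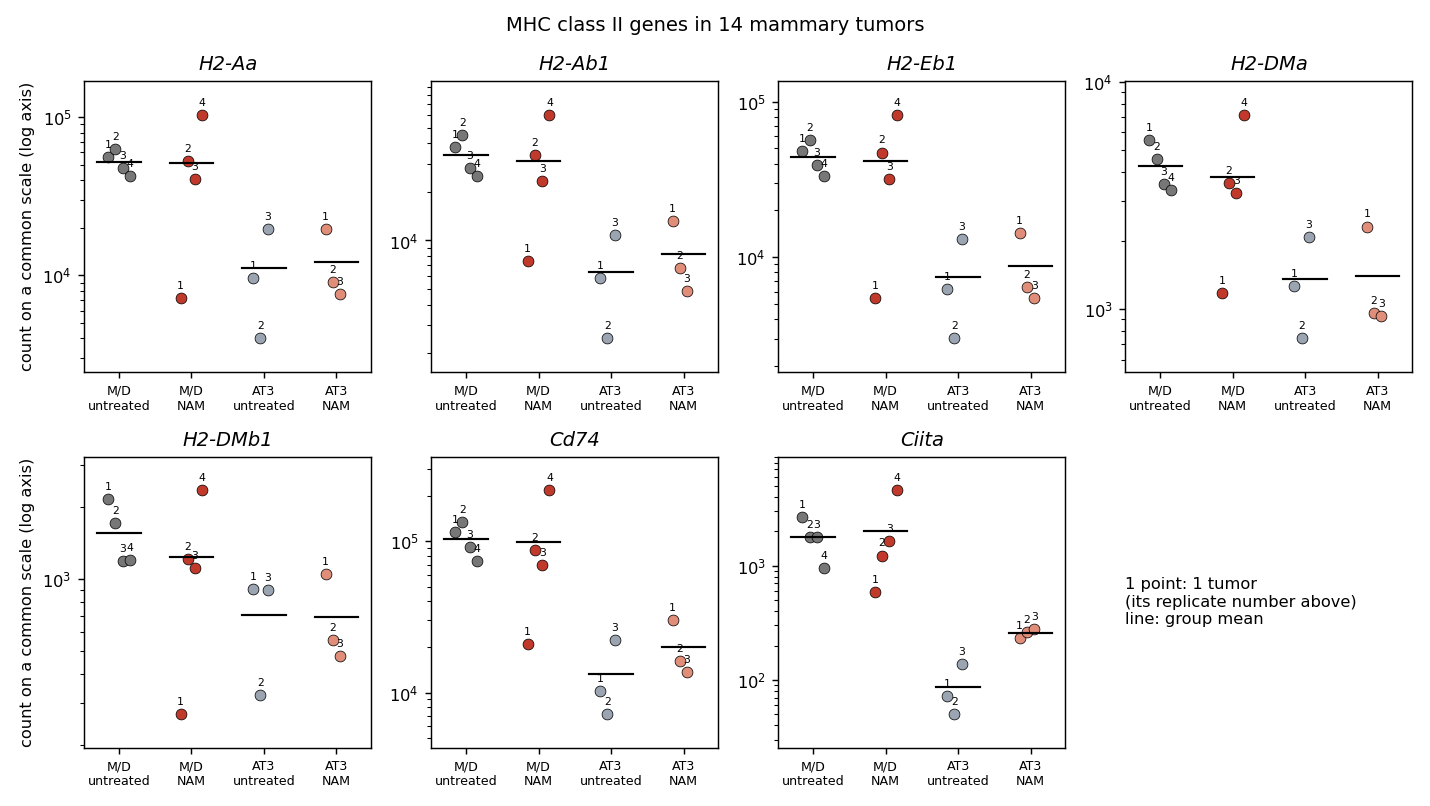
Counts of the 7 class II genes in each of the 14 tumors, on a scale common to both models (log axis), with 1 point for each tumor, its replicate number above it and a line at the group mean. For all 7 genes, each untreated AT3 tumor lies below each untreated M/D-driven tumor, and NAM-treated M/D-driven tumor 1 is the lowest of its group.

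The antigen-binding chains are considered first, in M/D-driven tumors. *H2-Aa* (GSMG0017425, chromosome 17 of mm10, 34282744 to 34287819) had normalized counts of 63052, 69856, 54070 and 47510 in untreated tumors 1 to 4. In NAM-treated tumors 1 to 4 the counts were 8033, 58506, 45927 and 121112. The groups overlapped, with untreated tumors spanning a factor of 1.47 and NAM-treated tumors a factor of 15.1. The means were practically equal, 58622 ± 9832 (SD, n = 4) untreated and 58395 ± 46994 (SD, n = 4) treated, whereas the log2 fold change of NAM over untreated, which weighs the low tumor more, was -0.53 (SE 0.72, adjusted p = 0.881 by limma). Fold changes here and below are on the scale of log2(normalized count + 1).

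*H2-Ab1* (GSMG0016547, chromosome 17, 34263227 to 34269418) had counts of 42524, 49636, 32182 and 28132 in untreated and of 8345, 37088, 26411 and 70436 in NAM-treated M/D-driven tumors. *H2-Eb1* (GSMG0016521, chromosome 17, 34305867 to 34316674) had 54341, 62993, 44341 and 36943 in untreated and 6059, 51849, 36141 and 96306 in treated tumors. The order of the 4 treated tumors was the same for these chains as for *H2-Aa*, with tumor 1 lowest and tumor 4 highest, and the groups overlapped. The log2 fold change was -0.43 (SE 0.58) for *H2-Ab1* and -0.59 (SE 0.75) for *H2-Eb1*, with limma adjusted p of 0.878 and 0.872.

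The invariant chain gene *Cd74* (GSMG0018459, chromosome 18, 60803848 to 60812651, a row whose symbol cell also names the microRNA *Mir5107*) had counts of 129724, 147249, 104179 and 83126 in untreated M/D-driven tumors. In NAM-treated tumors it had 23241, 95552, 78823 and 252694. Treated tumor 4 had the highest and tumor 1 the lowest count of the 8 tumors, and the log2 fold change was -0.48 (SE 0.63, limma adjusted p = 0.877).

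The peptide-exchange chains followed the same order at lower counts. *H2-DMa* (GSMG0016538, chromosome 17, 34122831 to 34139101) had 6229, 5031, 4047 and 3744 in untreated and 1311, 3947, 3672 and 8355 in NAM-treated M/D-driven tumors. *H2-DMb1* (GSMG0016540, chromosome 17, 34153190 to 34160229) had 2421, 1894, 1352 and 1337 in untreated and 301, 1326, 1258 and 2743 in treated tumors. Both groups overlapped for both genes, with log2 fold changes of -0.39 (SE 0.50) and -0.65 (SE 0.61) and limma adjusted p of 0.872 and 0.821. *H2-DMb1* lies next to its close copy *H2-DMb2*, and reads that fit both could have been split between them.

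The transactivator gene *Ciita* (GSMG0014657, chromosome 16, 10480059 to 10527640) had counts of 2995, 1960, 2046 and 1065 in untreated M/D-driven tumors and 662, 1353, 1880 and 5347 in NAM-treated tumors. Again tumor 1 of the treated group was lowest and tumor 4 highest, and the log2 fold change was -0.13 (SE 0.61, limma adjusted p = 0.974).

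Taking the members as a group, 0 of 7 passed the thresholds for NAM against untreated in M/D-driven tumors (unadjusted p of at most 0.05 and at least 1.5-fold by limma, the cutoffs of the study). Over all 21700 genes tested, 6.22% passed in either direction, 3.03% as higher and 3.19% as lower. The count was also 0 of 7 by edgeR and by DESeq2 on the recovered reads, and all 7 unadjusted p values were above the threshold. The median log2 fold change of the members was -0.48, beside 0.01 over all genes tested. Without NAM-treated tumor 1 the count was still 0 of 7, where 5.17% of genes passed, but the direction of 6 members turned: *H2-Aa* came to 0.25, *H2-Ab1* to 0.14, *H2-Eb1* to 0.22, *H2-DMa* to 0.08, *Cd74* to 0.13 and *Ciita* to 0.34, while *H2-DMb1* stayed at -0.03. The 95% intervals without this tumor reached from -0.89 to 1.56 for *Ciita* and from -0.56 to 1.05 for *H2-Aa*, so that a 1.5-fold rise lay inside both.

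**Figure D2:**
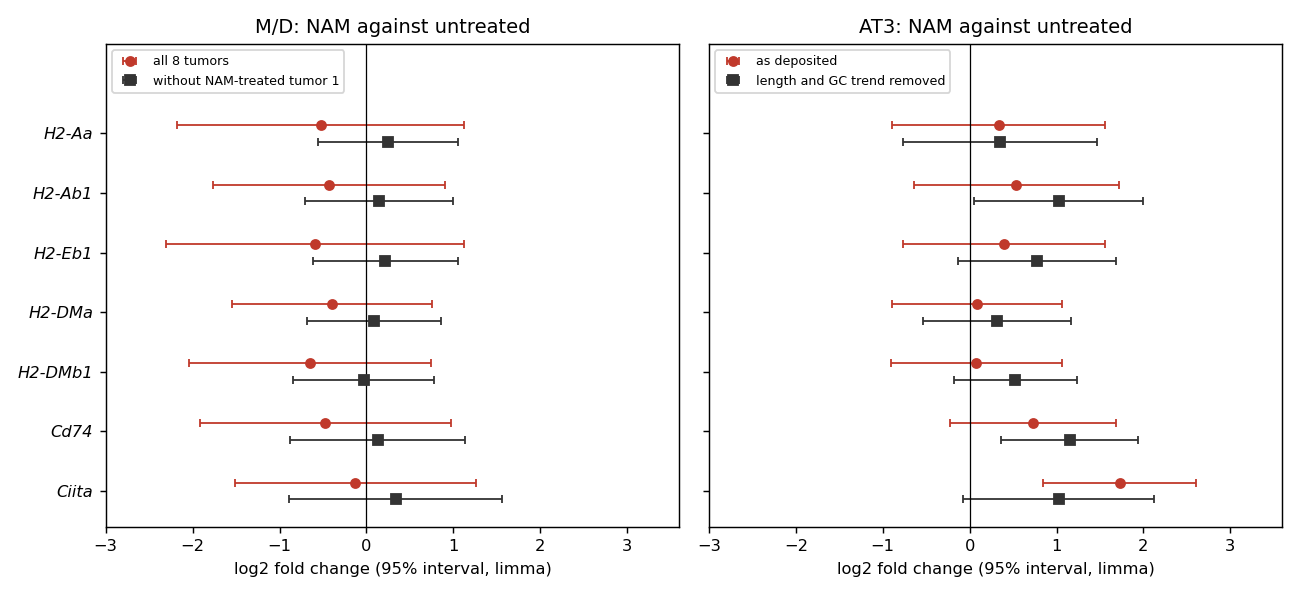
Log2 fold change of NAM-treated over untreated tumors for each class II gene, with 95% intervals from limma, in M/D-driven tumors (left, all 8 tumors and without NAM-treated tumor 1) and AT3 tumors (right, deposited values and values with the trend along transcript length and GC content removed). In M/D-driven tumors every interval spans 0, and 6 genes change sign when tumor 1 is left out. In AT3 tumors the interval of *Ciita* lies above 0 with deposited values only, and those of *Cd74* and *H2-Ab1* with the trend removed only.

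Tumor 1 of the treated group was not low in the whole class II region. *H2-Ob*, the beta chain of the inhibitor of H2-M, had 4268 in this tumor, against 134, 62.6 and 205 in the other NAM-treated and 208, 96.7, 114 and 70.8 in the untreated M/D-driven tumors. *H2-Oa*, its alpha chain, had 1328 in this tumor, against 194, 214 and 488 in the other treated and 343, 378, 167 and 159 in the untreated tumors. For both genes tumor 1 was the highest of the 8 tumors. *H2-Eb2*, a further beta chain gene, was also highest there with 572, against 45.1, 22.1 and 190 in the other treated tumors and between 10.5 and 85.2 in the untreated tumors.

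*H2-DMb2* had 1191 in NAM-treated tumor 1, close to 1123 in treated tumor 4 and 1009 in untreated tumor 1. The ratio of *H2-DMb2* to *H2-DMb1* reads was 3.95 in tumor 1 and between 0.142 and 0.417 in the other M/D-driven tumors. The ratio of *H2-Ob* to *H2-DMa* reads was 3.25 in tumor 1 and at most 0.0339 in the other M/D-driven tumors. Among the B cell markers of the same tumor, *Cd79a* and *Cd79b*, the signalling chains of the B cell receptor, had normalized counts of 86806 and 31992, and *Cd22*, a B cell co-receptor, had 5295. *Ms4a1* (CD20, found on mature B cells) had 270, a lower count but still one that raised its group. The log2 fold change of *Ms4a1* for NAM over untreated was 0.35 with this tumor and -1.03 without it. The part of B cell RNA in the *H2-Oa*, *H2-Ob* and *H2-Eb2* values was not tested.

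*H2-Ea-ps*, the inactive I-E alpha gene, was at 0 reads in 13 tumors and had 1 read in NAM-treated M/D-driven tumor 1. Of the 6 further class II genes listed, 4 were tested, and 0 of 4 passed the thresholds in M/D-driven tumors. Their median log2 fold change was 1.07, but without NAM-treated tumor 1 *H2-Oa* had 0.17, *H2-Ob* 0.09, *H2-Eb2* 0.90 and *H2-DMb2* 0.51, and none passed.

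**Figure D3:**
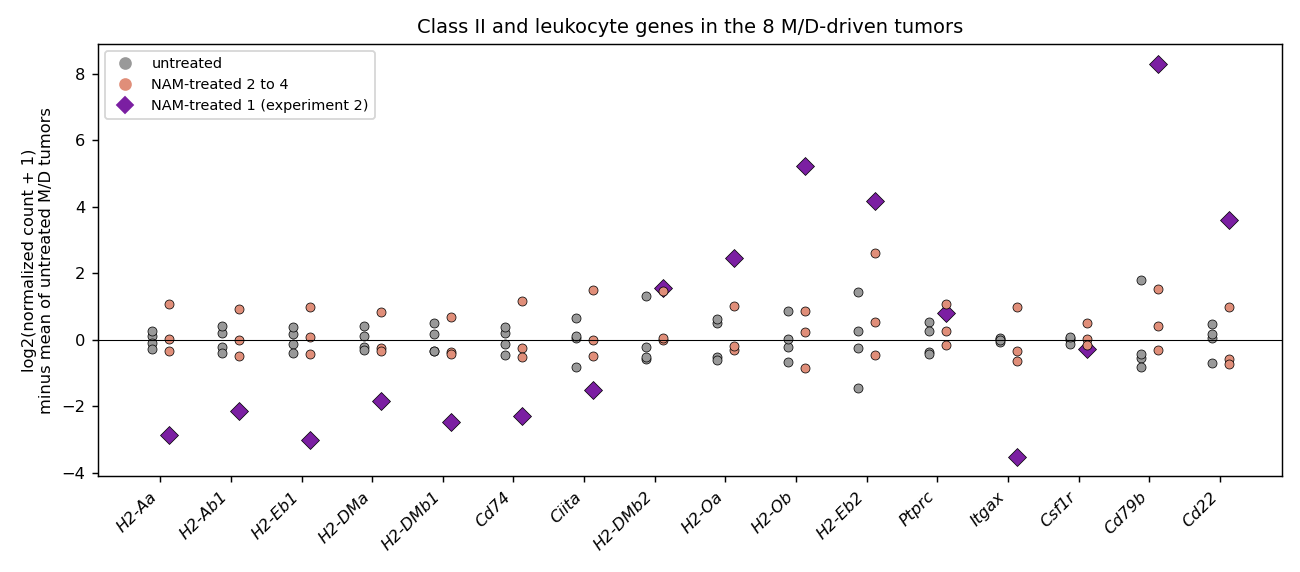
Class II genes and leukocyte genes in the 8 M/D-driven tumors, as log2(normalized count + 1) minus the mean of the 4 untreated tumors. NAM-treated tumor 1 (diamonds) is lowest for the 7 members, for *Itgax* and, by little, for *Csf1r*. It is highest for *H2-Oa*, *H2-Ob*, *H2-Eb2*, *Cd79b*, *Cd22* and, by little, *H2-DMb2*, while its *Ptprc* lies among the other tumors.

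In AT3 tumors, *Ciita* was the member that rose with NAM. It had normalized counts of 60.9, 43.7 and 116 in untreated tumors 1 to 3, resting on 42, 43 and 142 reads. In NAM-treated tumors 1 to 3 it had 198, 234 and 248, resting on 163, 249 and 300 reads. The groups did not overlap, which was the case with higher values under NAM for 11.7% of the 19281 genes tested in this model. The log2 fold change was 1.73 (SE 0.39, 95% interval 0.85 to 2.60, or 3.31-fold), which passed the thresholds, and the limma adjusted p was 0.166. *Ciita* was the 1 of 7 members that passed, where 12.2% of all genes passed as higher, 10.9% as lower and 23.1% in either direction.

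The other members overlapped between untreated and NAM-treated AT3 tumors. *Cd74* had 8630, 6281 and 18508 in untreated and 25903, 14382 and 12274 in treated tumors, and its log2 fold change was 0.73 (SE 0.42, limma adjusted p = 0.299). *H2-Aa* had 8037, 3484 and 16537 in untreated and 16910, 8091 and 6791 in treated tumors, and its log2 fold change was 0.33 (SE 0.54, limma adjusted p = 0.711). Untreated tumor 3 and treated tumor 1 were the high tumors of their groups for both genes.

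*H2-Ab1* had 4903, 2151 and 9096 in untreated and 11366, 5993 and 4326 in treated AT3 tumors, a log2 fold change of 0.54 (SE 0.52). *H2-Eb1* had 5269, 2623 and 10906 in untreated and 12295, 5713 and 4913 in treated tumors, with 0.40 (SE 0.51). Their limma adjusted p was 0.520 and 0.638, and the same pair of tumors was high.

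*H2-DMa* had 1056, 648 and 1731 in untreated and 1977, 852 and 838 in treated AT3 tumors. *H2-DMb1* had 756, 283 and 750 in untreated and 898, 492 and 425 in treated tumors. The log2 fold changes of these peptide-exchange chains were 0.08 (SE 0.43) for each, with limma adjusted p of 0.914 and 0.924. Whereas treated tumors 2 and 3 were below untreated tumor 3 for the 6 members other than *Ciita*, they were its highest tumors for *Ciita*.

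The median log2 fold change of the 7 members in AT3 tumors was 0.40, beside -0.05 over all genes tested, and all 7 values were above 0, as were those of 47.5% of all genes. Without untreated tumor 2 the values of *H2-Aa*, *H2-Ab1*, *H2-Eb1*, *H2-DMa* and *H2-DMb1* were -0.24, -0.01, -0.11, -0.27 and -0.39. Without NAM-treated tumor 1 those of *H2-Aa*, *H2-Eb1*, *H2-DMa* and *H2-DMb1* were -0.06, -0.01, -0.32 and -0.25. *Cd74* also passed the thresholds without untreated tumor 3, at 1.17 (unadjusted p = 0.0117 by limma across all genes), and *Ciita* passed without each tumor in turn, with values between 1.42 and 2.11.

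Fold changes in AT3 tumors moved with transcript length across genes, with a Spearman correlation of 0.59 over 16429 genes (85.2% of those tested had a length, and genes are not independent replicates). Among the members, *Ciita* had the longest transcript, at 6007 nucleotides, and the others had between 1212 and 3223. With the trend along length and GC content removed from each tumor, the log2 fold change of *Ciita* was 1.02 (SE 0.49, limma adjusted p = 0.251) and did not pass the thresholds. *Cd74* then had 1.15 (SE 0.35, limma adjusted p = 0.149) and *H2-Ab1* 1.03 (SE 0.43, limma adjusted p = 0.210), and both passed, where 8.73% of genes passed as higher. In M/D-driven tumors the corresponding correlation was -0.04, and 0 of 7 members passed with the trend removed, where 1.9% of genes passed as higher and 3.42% as lower.

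The NAM effect on *Ciita* differed between the models by -1.85 on the log2 scale, taken as the effect in M/D-driven minus that in AT3 tumors (SE 0.81, 95% interval -3.60 to -0.10, limma adjusted p = 0.317). This passed the thresholds for 1 of 7 members, where 7.9% of 22710 genes passed in this direction and 14.9% in either. The other members had differences between -1.21 for *Cd74* and -0.48 for *H2-DMa* and did not pass. The *Ciita* difference no longer passed without NAM-treated M/D-driven tumor 1, at -1.39, with the length and GC trend removed, at -1.17, or by edgeR or DESeq2. Of the fits that left out a tumor, it passed only without untreated M/D-driven tumor 4, NAM-treated M/D-driven tumor 4 or untreated AT3 tumor 3, and without NAM-treated M/D-driven tumor 4 the difference for *Cd74*, at -1.75, passed too.

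Between the models, all 7 members were lower in untreated AT3 than in untreated M/D-driven tumors, and their groups did not overlap. For this comparison the tumors were brought to a common scale, because the deposited values of the models were not on 1 scale. On that scale *Ciita* had 1798 ± 698 (SD, n = 4) in M/D-driven and 86.9 ± 45.7 (SD, n = 3) in AT3 tumors, a log2 difference of -4.39 (SE 0.43, limma adjusted p = 0.000187). *Cd74* had 103672 ± 25846 (SD, n = 4) and 13205 ± 7861 (SD, n = 3), a log2 difference of -3.10 (SE 0.39, limma adjusted p = 0.000515).

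The antigen-binding chains differed by -2.51 (SE 0.47) for *H2-Aa*, -2.62 (SE 0.46) for *H2-Ab1* and -2.79 (SE 0.45) for *H2-Eb1*, with limma adjusted p between 0.00141 and 0.00284. The peptide-exchange chains differed least, by -1.74 (SE 0.34) for *H2-DMa* and -1.24 (SE 0.40) for *H2-DMb1*, with limma adjusted p of 0.00360 and 0.0287. *H2-DMb1* had 1564 ± 463 (SD, n = 4) in M/D-driven and 708 ± 332 (SD, n = 3) in AT3 tumors. Of all 21560 genes tested, 30.2% passed as lower in AT3, 26.5% passed as higher, and 28.2% were lower with no overlap. Model, site of growth and experiment cannot be told apart here. Differences between the models moved with transcript length across genes too, with a Spearman correlation of -0.32 over 18141 genes. With the length and GC trend removed, *Ciita* had -3.49 (SE 0.52), close to *Cd74* at -3.38 (SE 0.40). *H2-DMb1* then had -1.55 (SE 0.37). A fit of all 14 tumors gave a different quantity, the difference between the models averaged over untreated and NAM-treated tumors. In it *H2-DMb1* did not pass, at -0.90 (limma adjusted p = 0.0893), and the other 6 did. With the deposited values left unscaled, all members had larger differences, from -1.64 to -4.79, but the median of all genes was then -0.48 in place of -0.04, and 3827 genes passed as higher and 8402 as lower in place of 5715 and 6508.

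In the order of group means on the common scale, the groups of M/D-driven tumors stood above the AT3 groups for all 7 members. Neighbours within a model did not differ beyond their spread, apart from *Ciita* in AT3 tumors, where NAM-treated tumors had 257 ± 23.5 (SD, n = 3). The lowest M/D-driven tumor, NAM-treated tumor 1, lay within the AT3 range for 5 of 7 members, with *H2-Aa* at 7208 against 3995 to 19748 in AT3 tumors. For *Ciita* and *H2-DMb1* it lay outside, above all AT3 tumors at 594 for *Ciita* and below all of them at 270 for *H2-DMb1*.

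Ratios between genes of the same tumor do not depend on the scale. All ratios were taken on recovered reads, without removal of the length and GC trend. *H2-Eb1* per *H2-Aa* read varied 1.38-fold over the 14 tumors, from 0.656 to 0.902, and *H2-Ab1* per *H2-Aa* 1.89-fold, from 0.550 to 1.04. The highest of the latter was again NAM-treated M/D-driven tumor 1, the next being 0.741. *H2-DMb1* per *H2-DMa* read varied 3.12-fold, from 0.230 to 0.716. *Ciita* per *H2-Aa* read varied 11.8-fold. It was between 0.0224 and 0.0824 in M/D-driven tumors, at 0.00757, 0.0125 and 0.00699 in untreated AT3 tumors and at 0.0117, 0.0290 and 0.0365 in NAM-treated AT3 tumors. Untreated AT3 tumors had the lowest ratios of *Ciita* to *H2-Aa*, overlapping with NAM-treated AT3 tumor 1 only.

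**Figure D4:**
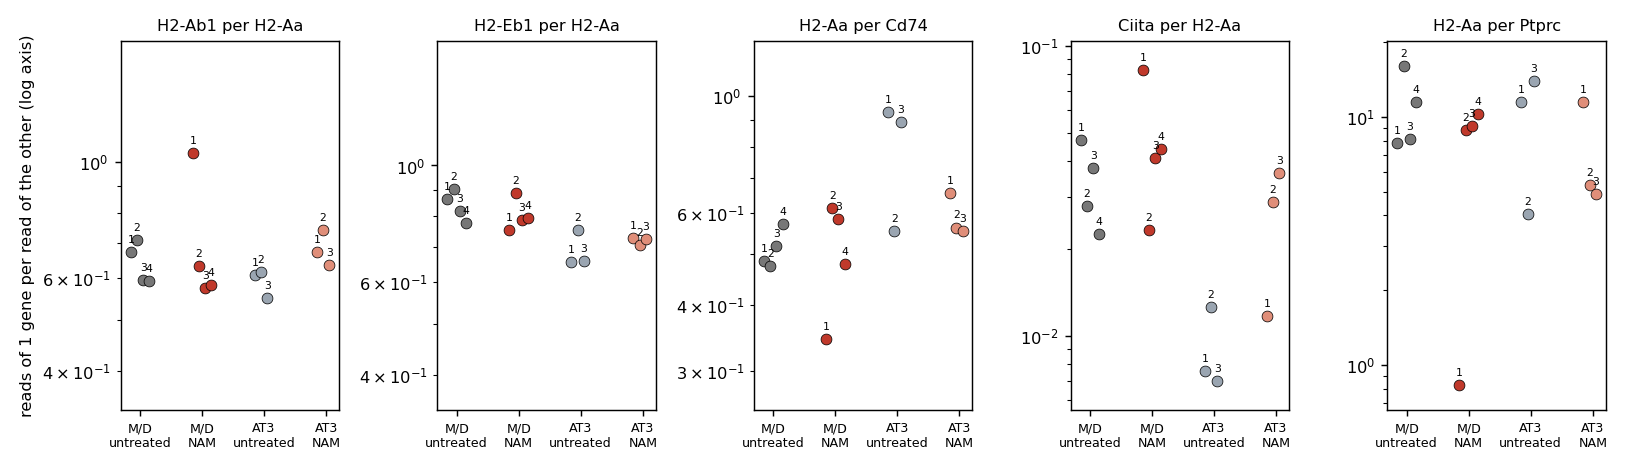
Ratios of recovered reads between pairs of genes in each tumor (log axis, numbers are replicate numbers). *H2-Ab1* per *H2-Aa* lies between 0.550 and 0.741 in 13 tumors and at 1.04 in NAM-treated M/D-driven tumor 1, *Ciita* per *H2-Aa* is lower in untreated AT3 tumors than in all others but NAM-treated AT3 tumor 1, and *H2-Aa* per *Ptprc* is lowest in NAM-treated M/D-driven tumor 1.

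Across tumors of a model the members moved together. Over the 8 M/D-driven tumors, Pearson correlations of log2 counts among the 6 members other than *Ciita* were between 0.97 and 1.00 (15 pairs, median 0.98), and those with *Ciita* between 0.82 and 0.91. Without NAM-treated tumor 1 the ranges over 7 tumors were 0.85 to 0.99 and 0.79 to 0.91. Over the 6 AT3 tumors the 15 pairs had between 0.72 and 1.00 (median 0.92), whereas the pairs with *Ciita* had only 0.26 to 0.73. These points share library and depth, and the correlations are given as a description.

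The genes most like the mean of the 6 members other than *Ciita* were sought among 15407 genes over the 14 tumors, after subtraction of each model's mean. NAM-treated M/D-driven tumor 1 was included, and the ranking was not repeated without it. They were *Gatm* (r = 0.94), *Gm13869* (0.94), *Ttc30b* (0.93), *Klra2* (0.93), *Gpr141* (0.92), *Ppfia4* (0.92), *Cd3g* (0.92), *Gpr65* (0.91), *Tlr2* (0.91) and *Tceal1* (0.91). Within the AT3 tumors alone, the correlation was lowest for *Gpr65*, at 0.74, and highest for *Tlr2*, at 0.99. Of the antigen-presenting pathway, *Ctss* (cathepsin S, which cleaves the invariant chain) ranked 30 at 0.88, *Cd83* (a surface protein of mature dendritic cells) ranked 36 at 0.87 and *March1* (a ubiquitin ligase that removes class II molecules from the surface) ranked 110 at 0.82. Others of the pathway were less alike, with 0.33 for *Cd80*, 0.27 for *Lgmn*, 0.24 for *Ctsd*, 0.14 for *Ctsl* and -0.42 for *Ifi30*. *Ifng*, which encodes interferon-gamma, ranked 65 at 0.85, and its receptor gene *Ifngr1* had -0.56, while the other class II genes had values between 0.11 for *H2-DMb2* and -0.47 for *H2-Ob*.

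Of the 7 enhanceosome genes, 3 rose with NAM in AT3 tumors, where 12.2% of all genes passed as higher: *Rfx5*, the defining RFX subunit, from 229, 272 and 199 to 383, 614 and 638 (log2 fold change 1.19, limma adjusted p = 0.166), *Creb1* (0.85, limma adjusted p = 0.175) and *Nfya* (0.79, limma adjusted p = 0.176). The median of the 7 was 0.39. With the length and GC trend removed, 2 of 7 passed, *Rfx5* at 0.80 and *Nfyc*, which encodes an NF-Y subunit, at 0.69, where 8.73% of all genes passed as higher. The difference of NAM effects between the models passed for 0 of 7. In M/D-driven tumors 0 of 7 passed, with *Rfx5* at 0.48 and *Nfya* at 0.36, or 0.39 and 0.06 without NAM-treated tumor 1. In untreated AT3 against untreated M/D-driven tumors, *Nfya* (-1.32) and *Creb1* (-1.66) were lower, and the other 5 did not pass, where 30.2% of all genes passed as lower.

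Of 8 genes that lead from interferon-gamma to *Ciita*, 1 rose with NAM in AT3 tumors, where 12.2% of all genes passed as higher. It was the receptor-associated kinase gene *Jak1* (0.76, limma adjusted p = 0.169). The median of the 8 was 0.06, and 4 of 8 lay above 0. In M/D-driven tumors 0 passed, and the inhibitor gene *Socs1* had 0.54 and the transcription factor gene *Irf1* 0.42. With the length and GC trend removed, *Jak1* had 0.33 in AT3 tumors and did not pass. Without NAM-treated tumor 1, *Socs1* had 0.20 and *Irf1* 0.49 in M/D-driven tumors. *Ifng* itself had normalized counts of 114, 56.5, 52.6 and 57.9 in untreated and 13.6, 57.2, 98.5 and 221 in NAM-treated M/D-driven tumors. In AT3 tumors it had 18.8, 8.12 and 79.8 in untreated and 70.5, 30.1 and 4.96 in treated tumors. Its low and high tumors in M/D-driven tumors were thus those of the class II chains, and NAM-treated AT3 tumor 3, with the highest *Ciita*, had the lowest *Ifng* of its model. *Jak1* (-1.61), *Jak2* (-1.08) and the receptor gene *Ifngr1* (-1.19) were lower in untreated AT3 than in untreated M/D-driven tumors, where 30.2% of all genes passed as lower.

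Among 7 genes of invariant chain cleavage and antigen processing, *Ctsd* (cathepsin D, a lysosomal protease) was the 1 that fell with NAM in M/D-driven tumors. It fell by 0.98 on the log2 scale (SE 0.32, limma adjusted p = 0.734), where 3.19% of all genes passed as lower. Without NAM-treated tumor 1 *Ctsd* had -0.82 and passed too, where 5.17% of genes passed in either direction. In AT3 tumors 0 of 7 passed, and the protease gene *Sppl2a*, which clears invariant chain fragments, had 0.54. With the length and GC trend removed, 3 of 7 passed in AT3 tumors, *Ctss* (0.72) and the thiol reductase gene *Ifi30* (0.59) as higher and the cathepsin gene *Ctsl* (-0.93) as lower. Of all genes, 8.73% then passed as higher, and 10.9% had passed as lower before the removal. *Ctss* (-1.35) and *Lgmn* (-0.71), which encodes an asparagine-specific lysosomal protease, were lower in untreated AT3 than in untreated M/D-driven tumors. In that comparison 30.2% of all genes passed as lower. Of 5 genes of class II turnover and costimulation found, 0 passed for NAM in either model, and the costimulatory gene *Cd80* (-2.28) and *March1* (-1.31) were lower in untreated AT3 tumors. Of the other class II genes, *H2-Oa* (-3.64), *H2-Ob* (-1.73) and *H2-DMb2* (-2.06) were lower in untreated AT3 tumors as well. These were 3 of 4 tested, beside 30.2% of all genes, and 0 of 4 passed for NAM in AT3 tumors.

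Markers of the cells that carry class II molecules moved with several of these results. *Ptprc* (CD45, on all leukocytes) was lower in untreated AT3 than in untreated M/D-driven tumors, by -2.24 (SE 0.29, limma adjusted p = 0.000593), as were, beside 30.2% of all genes, 6 of 10 dendritic cell markers, 6 of 10 macrophage markers (*Cd14* being higher), 4 of 5 T cell markers, the B cell marker *Cd22*, 3 of 4 neutrophil markers, 2 of 4 fibroblast markers and 4 of 7 epithelial markers. *H2-Aa* per *Ptprc* read had a median of 9.83 (range 7.85 to 16.0) in untreated M/D-driven and of 11.5 (range 4.06 to 13.9) in untreated AT3 tumors, which overlapped. *H2-Ab1* per *Ptprc* read overlapped too, with medians of 6.06 and 7.03. *Cd74* per *Ptprc* read had no overlap, by a small margin, at 15.7 to 33.8 and 7.31 to 15.6. *H2-Aa* per *Cd68* read had none either, at 8.01 to 15.5 and 0.798 to 3.40. Per *Csf1r* read (medians 4.08 and 6.76) and per *Itgax* read (11.1 and 11.9) *H2-Aa* overlapped. *Ciita* per *Ptprc* read had 0.373, 0.450, 0.308 and 0.258 in untreated M/D-driven and 0.0873, 0.0508 and 0.0975 in untreated AT3 tumors, with no overlap. The part of leukocyte content in the differences between the models was not tested beyond these ratios.

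In NAM-treated AT3 tumors, *Ptprc* rose by 0.71 (SE 0.24, limma adjusted p = 0.169), and its untreated and treated tumors did not overlap, at 697, 859 and 1186 against 1476, 1525 and 1385. Of 10 macrophage markers 4 rose, where 12.2% of all genes passed as higher: *Itgam* (1.18), *Adgre1* (1.05), *Csf1r* (1.04) and *Mertk* (0.81). The other 6 lay below 0, from -0.46 for *Fcgr1* to -0.09 for *C1qc*, and the median of the 10 was -0.16. The summed count of the 10 was between 58469 and 90437 in untreated and between 56773 and 81417 in treated tumors. Of 10 dendritic cell markers, *Itgax* (0.86) and *Cd209a* (0.84) rose, and the summed count was between 3607 and 5091 in untreated and between 5611 and 6278 in treated tumors. The B cell marker *Cd79a* (-1.14) fell. None of 5 T cell markers passed, with *Cd4* at 0.92, and none of 4 neutrophil markers. Of the tumor and stromal lists, *Cdh1* (0.90) rose and *Krt19* (-1.24) and *Krt14* (-0.79) fell among 7 epithelial markers, and *Pdgfra* (1.14) rose among 4 fibroblast markers. Of all genes, 10.9% passed as lower in this comparison. With the length and GC trend removed, *Itgam* (0.75), *Adgre1* (1.04) and *Cd209a* (1.48) still passed, whereas *Ptprc* (0.41), *Csf1r* (0.53), *Mertk* (0.49), *Itgax* (0.53), *Cd79a* (-0.72), *Cdh1* (0.49), *Krt19* (-0.88), *Krt14* (-0.48) and *Pdgfra* (0.47) did not. Of the 6 macrophage markers that had been below 0, *Cd68* (0.29), *C1qa* (0.26), *C1qb* (0.27) and *C1qc* (0.40) then lay above 0. *Fcgr1* (-0.37) and *Cd14* (-0.04) stayed below 0, and none of the 6 passed.

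*Ciita* per *Ptprc* read was 0.134, 0.154 and 0.179 in NAM-treated AT3 tumors, above the 3 untreated AT3 tumors and below the 4 untreated M/D-driven tumors. *H2-Aa* per *Ptprc* read was 11.5, 5.31 and 4.90 in NAM-treated AT3 tumors, within the range of the untreated ones. *Ciita* thus lay higher beside *Ptprc* in each NAM-treated than in each untreated AT3 tumor, which was not the case for *H2-Aa*.

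With all 8 M/D-driven tumors in the fit, 0 markers passed for NAM among the leukocyte, epithelial and stromal lists, whereas without NAM-treated tumor 1 the epithelial marker *Cdh1* (E-cadherin) passed as lower, at -0.74. In NAM-treated tumor 1, *Ptprc* was 9717, second to tumor 4 among the 8 tumors, while *H2-Aa* per *Ptprc* read was 0.827 there and between 7.85 and 16.0 in the other M/D-driven tumors. *Itgax* (CD11c, on dendritic cells and some macrophages) had 462 in tumor 1 and between 3384 and 10579 in the others, so that *H2-Aa* per *Itgax* read was 17.4 in tumor 1, the highest of the 8 tumors, and between 9.08 and 12.6 in the untreated tumors. The macrophage gene *Csf1r* had 12354 in tumor 1 and between 13396 and 21425 in the others. Macrophage markers differed among themselves, with *Adgre1* (F4/80) at 705 in tumor 1 against 1462 to 2412 in the untreated tumors, and *Cd68* at 6627 against 3490 to 5932. Beside *Csf1r* and *Cd68*, unlike beside *Itgax*, *H2-Aa* was lowest in tumor 1. *H2-Aa* per *Csf1r* read was 0.650 there and between 3.03 and 5.65 in the other M/D-driven tumors. *H2-Aa* per *Cd68* read was 1.21 there and between 8.01 and 23.7 in the others.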

How the data were processed

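RNA of 14 tumors had been sequenced from poly(A) libraries (paired end). The authors mapped reads with STAR v. 2.4.0 on mm10, counted those on constitutive gene regions annotated in Mouse FAST DB, and deposited a normalized signal, the count divided by a DESeq2 size factor. Size factors recomputed over all tumors were 1.10 to 1.17 in M/D-driven and 0.837 to 0.895 in AT3 tumors, so the models were not on 1 scale. Dividing by the value of 1 read gave whole reads for 100% of values (tolerance 0.01). Of 56414 genes, 19524 were at 0 in all tumors. Depth (40936868 to 84178009 reads) limits the precision of low genes.

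Values were taken as log2(signal + 1) and fitted with limma v. 3.58.1 (R v. 4.3.3) on genes whose mean reached 10 in a group. Untreated and NAM-treated tumors were compared within each model, the effects were compared by an interaction term, and untreated tumors of the models were compared after median-of-ratios scaling over all 14 tumors. A gene passed when p was 0.05 or less before adjustment and the fold 1.5 or more, as in the study, and p values were adjusted over all genes by Benjamini-Hochberg. The labels do not say that replicates are separate animals, so that p values measure the spread between these tumors. The labels' replicate numbers were not used to pair tumors. Alternatives were edgeR v. 4.0.16 and DESeq2 v. 1.42.0 on recovered reads, other scalings, pseudocounts and filters, each tumor left out, and removal of a spline trend (4 degrees of freedom each) along length and GC content of the longest GENCODE M21 transcript. Scripts were tested on simulated counts with 200 changed genes.

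Members and marker lists were chosen with earlier results of these data known. From each list, up to 4 genes past the thresholds, or the 2 of smallest p where none passed, were named. Genes most like the members were the 10 of highest Pearson correlation. Genes given for NAM-treated M/D-driven tumor 1, and the genes of the ratios, were chosen after their values were seen. *H2-Ea* was not found by symbol. A result of the B cell marker list is not reported here.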

Additional observations from a re-analysis of the deposited data

Results flagged for a closer look

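The highest value of *H2-Ob* among NAM-treated M/D-driven tumors, 4267.93 in tumor 1, lay farther from the other tumors of its group than Dixon's 95% limit allows. In untreated M/D-driven tumors, the highest value of *H2-DMb2*, 1008.59 in tumor 1, did the same. Chance sets apart about 1 in 20 such groups, and 22 groups of 4 tumors were examined. The difference of the NAM effect on *Ciita* between M/D-driven and AT3 tumors, -1.85 on the log2 scale, passed the thresholds in the interaction test but was lost under 15 of 23 alternatives.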

How the results depend on the processing

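For NAM in M/D-driven tumors 0 of 7 members passed under all alternatives run. Between the models 7 of 7 passed under all but the fit of all 14 tumors, where 6 did. That fit averages over treatment and so does not compare untreated tumors alone. For NAM in AT3 tumors the count was 2 with the length and GC trend removed, in place of 1. These 2 were *Cd74* and *H2-Ab1*, and *Ciita*, the 1 of the main fit, no longer passed. The count was between 1 and 2 when a tumor was left out. For the difference of NAM effects it was 0 by edgeR, by DESeq2, with the replicate block and with the trend removed, in place of 1, and between 0 and 2 when a tumor was left out. In M/D-driven tumors *Ciita* turned to 0.15 by edgeR and 0.19 by DESeq2. With a tumor left out, log2 fold changes in M/D-driven tumors ranged from -1.06 to 0.25 (*H2-Aa*), -0.88 to 0.14 (*H2-Ab1*), -1.11 to 0.22 (*H2-Eb1*), -0.81 to 0.084 (*H2-DMa*), -1.02 to 0.13 (*Cd74*) and -0.67 to 0.34 (*Ciita*). In AT3 tumors they ranged from -0.24 to 0.88 (*H2-Aa*), -0.0051 to 1.03 (*H2-Ab1*), -0.11 to 0.92 (*H2-Eb1*), -0.32 to 0.44 (*H2-DMa*) and -0.39 to 0.31 (*H2-DMb1*). In all, 486 alternative values of single genes kept direction and side of the thresholds, 18 reversed, 17 lost and 4 gained a call, and apart from the tumors left out the cause was not tested. Shares of all reads in place of deposited values shifted NAM over untreated by 0.12 in M/D-driven and 0.30 in AT3 tumors for every gene. Replicate numbers were no sign of pairing: same-numbered tumors correlated at 0.11, -0.44, -0.22 and -0.19 in M/D-driven and 0.13, 0.26 and -0.16 in AT3 tumors. The replicate block left the *Ciita* difference at -1.85. Counts over all genes moved too, from 658 higher and 692 lower in M/D-driven tumors to 350 and 632 with the trend removed and to 1287 and 805 by DESeq2, and from 2358 and 2100 in AT3 tumors to 1434 and 1187 with the trend removed. *Ciita* in untreated AT3 tumors rested on as few as 42 reads.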
